A study of Mus musculus with 6 samples.

Results

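Cluster 9 was a group of 112 haematopoietic stem cells (HSCs) among the 22378 cells of the series, 0.5% of them, that the authors had set apart by clustering. Its members were chosen as the cells the authors numbered 9, and its values are those of the authors' comparison of these cells with the other 22266. HSCs are the rare bone marrow cells that renew themselves and give rise to all blood lineages. All mice were of the Gfp-Lc3 strain, in which LC3, a protein of autophagosomes, is tagged with a fluorescent protein, and their sorted marrow HSCs were sequenced as single cells in droplets. There were 6 libraries, from mice fasted for 24 hours, mice fasted for 24 hours and refed for 24 hours, and mice fed freely, each at a young and at an old age, with 1 mouse per library. Fasting, refeeding and age could not be read in cluster 9, because the tables used here pool the libraries and the library of each cell was not analysed here. A share of cluster 9 cells from 1 mouse or 1 condition therefore cannot be told apart from a program present in all of them.

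Immediate early genes are switched on within minutes of a signal, without new protein synthesis, by transcription factors that are already in the cell, such as SRF with its ELK partners and CREB. Many of their products are transcription factors of the AP-1, EGR and NR4A families, and others shut the response down again by dephosphorylating kinases or destroying mRNA, so the transcripts are short lived. Growth factors, cytokines, stress and the isolation of cells from tissue are all known to induce them, and several, among them Egr1, Nr4a1 and Junb, are known from mouse studies as genes that hold HSCs in quiescence. Which of these inputs acted here was not tested.

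Values are the authors' log2 fold changes of cluster 9 against all other cells, together with each gene's log2 mean level over all cells in counts per 10000. Fold changes lie on the scale of back-transformed mean log counts, so they are not ratios of arithmetic means. A gene was called higher or lower where the fold change was at least 0.5 in size (1.41-fold) and the deposited adjusted p was under 0.05. Clusters were defined on these same values and the p-values treat cells as replicates, so a call is a description of size and not a test, and no value carries an error between animals. No count of a gene in 112 cells allows a share of up to 2.68% of cells with a count, for counting error only. Cluster 9 was not shallow: the depth per cell that would leave as many genes undetected as were seen was 13997 counts in cluster 9, against 9579 to 15555 in clusters 0 to 8.

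Of 17068 genes, 205 were called higher in cluster 9, or 1.2%, and 3390 were called lower, or 19.9%. Most of the lower calls were genes with no count in these 112 cells, and 19.7% of all genes had no count in them. Among the 13705 genes that had a count there, 286 or 2.09% were called lower. In the gene lists that follow, members without a count are counted apart, and a member is said to be called only where it had a count. The median fold change of genes with a count was 0.04 in the authors' deposited table, so folds needed no recentring. The leading genes were immediate early genes, which made up 9 of the first 10 genes in the authors' order and 15 of the first 25 named genes. By the lists used here they were a minority of all calls, however, with 38 of the 205 higher genes (18.5%). That share depends on which genes the lists hold. Klf2, Hes1 and Cdkn1a, which mark the cluster, are outside them and count below among the other genes called higher.

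**Figure D1:**
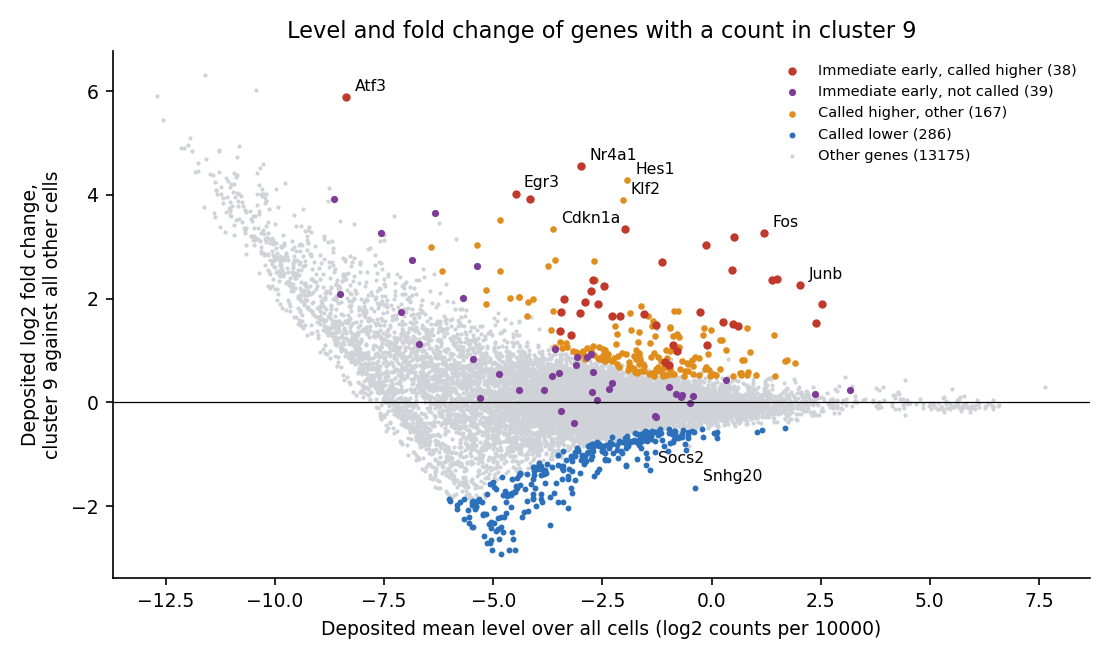
Deposited log2 fold change of cluster 9 against all other cells (vertical axis) by the gene's mean level over all cells (horizontal axis, log2 counts per 10000), for genes with a count in cluster 9, with the number of genes of each kind in the legend. The 38 called immediate early genes (red) lie at fold changes of 0.71 to 5.89 and reach into the highly expressed genes, with a median log2 level of -1.20, against -3.11 for those not called (purple).

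The 6 genes that mark the cluster were all called higher, as their choice required. They are given as its description. Fos, the AP-1 subunit that pairs with JUN proteins, had a log2 fold change of 3.26 (9.61-fold) at a mean level of 1.21 in the authors' deposited table. Nr4a1, an orphan nuclear receptor, had a fold change of 4.56 (23.5-fold) at a level of -3.0. Hes1, a repressor downstream of Notch, had 4.29 at a level of -1.94, and Klf2, a zinc finger factor tied to quiescence in lymphocytes and endothelium, had 3.90 at -2.04. Cdkn1a, the gene of the cell cycle inhibitor p21, had 3.34 at -3.64. Atf3, a stress-induced AP-1 family repressor, had the largest fold change of the 6 at 5.89, at the lowest level of them, -8.37, which is 0.475 counts in 112 cells at the average rate.

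Each of the 6 markers had a lower value in clusters 0 to 8 than in cluster 9. By the authors' deposited tables Fos was highest after cluster 9 in cluster 4, at 0.61. Clusters 1, 7 and 2 had it at 0.38, 0.12 and -0.02, and it lay between -0.25 and -0.63 in clusters 0, 3, 5, 6 and 8. The same tables gave Hes1 at 0.37 in cluster 8, its highest value outside cluster 9 among clusters 0 to 8, Klf2 at 0.50 in cluster 2, Nr4a1 at 0.42 in cluster 2 and Cdkn1a at 0.65 in cluster 8. In the 10 cells of cluster 10, where a value rests on few cells, Fos was 1.12, Nr4a1 1.53, Hes1 1.31, Klf2 1.04 and Cdkn1a 1.83 in the authors' deposited table, and Atf3 had no count. Atf3 was at 0.79 in cluster 2 and had no count in clusters 6 and 8.

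The label of a stem cell was read against 10 HSC markers, among them Procr, Mllt3, Fgd5, Hlf and Slamf1. None was called higher or lower in cluster 9, with fold changes of -0.22 (Fgd5) to 0.59 (Ctnnal1) and a median of 0.09 in the authors' deposited table. Of 115 markers of 15 other cell types, which covered mature blood cells, endothelium, stroma, committed progenitors and cycling cells, 101 were measured and 42 had no count in cluster 9. Among the markers without a count were Ebf1 and Pax5 of B cells, Csf1r and Ccr2 of monocytes, Elane and Ctsg of granulocyte-monocyte progenitors and Klf1 of erythroid cells. For all genes the share without a count was 19.7%. Some markers with a count had high fold changes in the authors' deposited table without being called, up to 3.49 among stromal, 3.30 among endothelial, 3.20 among B cell, 2.98 among neutrophil, 2.68 among monocyte and 2.44 among granulocyte-monocyte progenitor markers. Their part in the results was not tested. A single one of the 101 was called higher, where 1.2% of all genes were. It was Klrb1c, a natural killer cell receptor gene, at 1.01 in cluster 9, against 0.70 for cluster 3 by the authors' deposited tables. The other natural killer markers Klrd1 and Prf1 had no count in cluster 9, and Nkg7 was called lower at -1.13. The HSC markers of cluster 9 thus stood near the level of all other cells, and the label of an HSC was kept.

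Across 6 lists of immediate early genes, 84 genes in all, 78 were measured and 38 of them (48.7%) were called higher in cluster 9, against 1.2% of all genes. The list was part of how the cluster was labelled, so the share describes how wide the program was and is not evidence for it. None with a count was called lower. The median over the 78 was 1.42, with 72 above 0, in the authors' deposited table. Of the other members, 39 had a count and were not called, and 1, Batf3, had no count. Of those 39, 19 had a fold change of 0.5 or more and missed the call on the adjusted p, such as Egr2 at 3.26, Ccn1 at 3.64, Nr4a3 at 2.75 and Ptgs2 at 2.63, with mean log2 levels of -7.58, -6.34, -6.86 and -5.37.

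AP-1 subunits form dimers that bind TGANTCA sites, and 8 of the 15 measured were called higher. Besides Fos and Atf3 these were Junb at 2.25, Fosl2 at 2.23, Jun at 1.89, Fosb at 1.73, Maff at 1.72 and Jund at 1.54 in the authors' deposited table. They included genes with some of the highest mean counts of the program, with log2 levels of 2.53 for Jun, 2.38 for Jund and 2.03 for Junb. All 3 JUN proteins and 3 of the 4 FOS proteins were thus called. The remaining FOS gene, Fosl1, was at 1.75 but at a level of -7.10, and was not called. Batf at -0.28, Batf2 at 0.57, Jdp2 at -0.40, Mafg at -0.02 and Mafk at 0.73 were not called either, so of the small MAF genes Maff alone was called.

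The EGR zinc finger factors and their NAB co-repressors had 2 of 6 members called. Egr1 was at 2.35 with a level of 1.39, and Egr3 at 4.02 with a level of -4.49, in the authors' deposited table. Nab1 and Nab2, which bind EGR proteins and curb them, were at 0.29 and 0.38 and were not called. Of the 3 NR4A nuclear receptors, which act without a known natural ligand, Nr4a2 was called beside Nr4a1, at 3.35 with a level of -1.99 in the authors' deposited table.

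Genes that end the response were called beside those that carry it. Dual-specificity phosphatases inactivate MAP kinases, and Dusp5 at 3.91, Dusp1 at 2.70 and Dusp2 at 1.56 were called in the authors' deposited table. Dusp6 at 0.88, Dusp4 at 0.24 and the Sprouty genes Spry1 at 0.87 and Spry2 at 1.03 were not, which left 3 of 12 measured feedback genes called. Of 8 genes for mRNA decay factors, 5 were called. Zfp36, whose product tristetraprolin binds AU-rich elements and recruits the deadenylase, was at 3.04 and its paralogue Zfp36l1 at 1.50. The same table gave the ribonuclease gene Zc3h12a at 1.37 and the anti-proliferative deadenylase partners Btg2 and Btg1 at 3.18 and 1.11. Zfp36l2, with a log2 mean count level of 3.16, was at 0.24 and was not called.

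Among the other 34 measured immediate early genes, 18 were called. The highest was Ppp1r15a at 2.55, whose product GADD34 directs the dephosphorylation of eIF2-alpha and lets translation resume after stress. Ier2, a nuclear protein gene, was at 2.38, Csrnp1 at 2.37, the salt-inducible kinase Sik1 at 2.15 and the kinase Sgk1 at 2.00 in the authors' deposited table. These values put the kinase genes well above the threshold. Further down came Gadd45b, a stress sensor, at 1.91, Trib1, a pseudokinase, at 1.75, Rgs2, which turns off G protein signals, at 1.71, and Mcl1, an anti-apoptotic BCL2 family member, at 1.47. The lowest called were Gadd45g at 0.98, Ier5 at 0.77 and Tob2 at 0.71 in the authors' deposited table. Several genes of the class were not called, with Myc at 0.12, Pim1 at 0.15, Srf at -0.17 and Per1 at 0.25.

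All 38 called genes had a higher fold change in cluster 9 than in any of clusters 0 to 8, and 62 of the 78 measured did. The 38 were chosen by their call in cluster 9, which nearly fixed this: 203 of all 205 genes called higher there were also highest there. For the 78, chosen by list, the comparison is the 18.8% of all genes with their highest value in cluster 9. The lead of the 38 over the next cluster ranged between 0.54 and 5.10 with a median of 1.47, and it too follows in part from their choice. That next cluster was cluster 2 for 13 genes, cluster 4 for 13, cluster 1 for 6, cluster 8 for 3 and clusters 0, 3 and 7 for 1 each. All clusters share cells in their comparisons, since cluster 9 is part of the rest in each of the others, so the tables are set side by side and no relation between them is drawn.

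In the authors' deposited tables the median fold change of the 38 genes was 1.90 in cluster 9. Clusters 4, 2 and 1 followed with medians of 0.14, 0.11 and 0.07, and clusters 0 and 3 were both at -0.22. Of the 38, cluster 4 had Fos at 0.61, Jun at 0.59, Fosb at 0.66 and Egr3 at 0.57 called higher, where 0.387% of all genes were called higher. Cluster 2, where 3.02% of all genes were called higher, had 2 others, Plk2 at 0.80 and Maff at 0.67, which stood at -1.17 and -0.76 in cluster 0. In cluster 3, where 1.9% of all genes were called lower, 6 of the 38 were: Fos and Btg2 at -0.63 each, Nr4a1 at -0.70, Dusp1 at -0.52, Egr3 at -0.75 and Rgs2 at -0.51. Lower calls among genes with a count were most frequent in cluster 6, with 14 of the 38 against 14.4% of all genes with a count there, among them Egr1 at -0.67 and Jun at -0.59. Cluster 10 had a median of 0.65 over the 38 and 1 call, Ier5 at 1.08, where 1.79% of all genes were called higher.

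**Figure D2:**
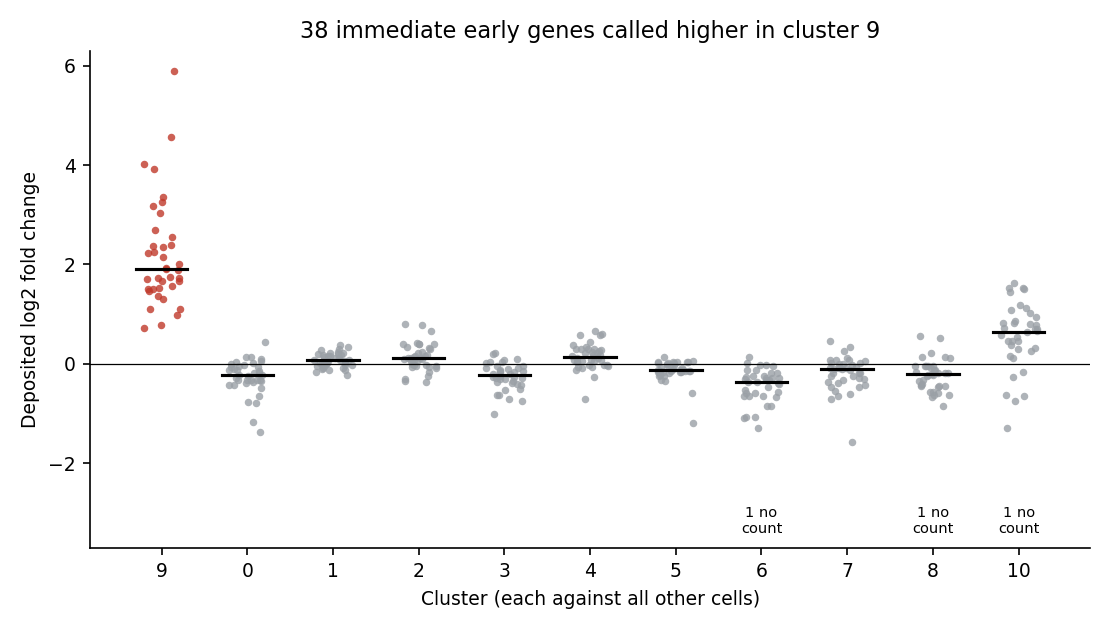
Deposited log2 fold change of each cluster against all other cells (vertical axis) for the 38 immediate early genes called higher in cluster 9, 1 point per gene, with the median as a bar. Cluster 9 has a median of 1.90, no other cluster of 50 or more cells has a median above 0.14, and the 10 cells of cluster 10 have 0.65. The genes were chosen by their value in cluster 9, and numbers at the bottom count genes without a count in that cluster.

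The sequence before the start of these genes was examined because it was not used to define the cluster. The genes themselves, however, were chosen from lists of known immediate early genes. The cyclic AMP response element (CRE) TGACGTCA binds CREB and ATF proteins, its TGACG part is a weaker site, and the CArG box binds SRF. Promoters of the RefSeq annotation on GRCm38.p6, 250 bases before to 50 after the start, were found for 31 of the 38 genes. Those of Egr1, Egr3, Ier2, Trib1, Sik1, Gem and Hbegf were not found, so the motif shares below leave these genes out. Below are the first 6 of them in the authors' order with a full CRE or a CArG box in the 250 bases before the start, with that motif in capitals, read in the direction of transcription.
Btg2 (chr1:134079156-134079405, minus strand): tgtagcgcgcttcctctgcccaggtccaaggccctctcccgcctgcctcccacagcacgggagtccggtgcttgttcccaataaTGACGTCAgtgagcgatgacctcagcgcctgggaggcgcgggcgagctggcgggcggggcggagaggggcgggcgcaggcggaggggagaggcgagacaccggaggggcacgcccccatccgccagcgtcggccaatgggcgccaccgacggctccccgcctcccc
Ppp1r15a (chr7:45526269-45526518, minus strand): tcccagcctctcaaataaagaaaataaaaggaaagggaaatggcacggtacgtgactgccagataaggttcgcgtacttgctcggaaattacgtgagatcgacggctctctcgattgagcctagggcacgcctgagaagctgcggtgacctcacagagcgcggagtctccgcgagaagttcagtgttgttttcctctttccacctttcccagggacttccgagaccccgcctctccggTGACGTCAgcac
Zfp36 (chr7:28379229-28379478, minus strand): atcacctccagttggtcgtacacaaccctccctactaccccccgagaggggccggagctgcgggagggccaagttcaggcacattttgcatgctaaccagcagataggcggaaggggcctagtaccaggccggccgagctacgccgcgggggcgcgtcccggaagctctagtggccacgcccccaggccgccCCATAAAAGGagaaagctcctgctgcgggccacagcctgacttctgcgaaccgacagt
Dusp1 (chr17:26508473-26508722, minus strand): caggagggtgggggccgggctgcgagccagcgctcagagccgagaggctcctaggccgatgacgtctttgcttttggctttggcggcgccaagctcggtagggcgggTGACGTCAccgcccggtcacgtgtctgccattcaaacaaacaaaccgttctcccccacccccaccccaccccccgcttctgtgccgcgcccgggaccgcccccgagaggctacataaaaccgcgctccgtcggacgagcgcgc
Dusp5 (chr19:53528895-53529144, plus strand): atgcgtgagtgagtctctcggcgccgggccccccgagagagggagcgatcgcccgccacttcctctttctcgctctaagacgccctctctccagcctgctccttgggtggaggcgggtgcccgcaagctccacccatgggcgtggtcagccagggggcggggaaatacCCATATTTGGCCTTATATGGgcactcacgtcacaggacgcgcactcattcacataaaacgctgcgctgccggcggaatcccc
Plk2 (chr13:110394794-110395043, plus strand): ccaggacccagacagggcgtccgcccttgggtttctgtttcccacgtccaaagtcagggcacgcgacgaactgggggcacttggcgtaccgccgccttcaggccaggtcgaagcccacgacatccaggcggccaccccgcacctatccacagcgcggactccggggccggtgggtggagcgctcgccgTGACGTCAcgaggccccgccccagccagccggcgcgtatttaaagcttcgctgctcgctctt

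The CRE began at position -166 in Btg2, -143 in Dusp1, -62 in Plk2 and -12 in Ppp1r15a, counted back from the start. The CArG box of Zfp36 began at -58 and the pair in Dusp5 at -82 and -72. Both marker genes with the most TGACG matches are shown next, with TGACG on either strand in capitals: Fos held 2 and Nr4a1 held 4. Atf3 and Klf2 held 1 each and Cdkn1a held none in either of its 2 listed promoters.
Fos (chr12:85473640-85473889, plus strand): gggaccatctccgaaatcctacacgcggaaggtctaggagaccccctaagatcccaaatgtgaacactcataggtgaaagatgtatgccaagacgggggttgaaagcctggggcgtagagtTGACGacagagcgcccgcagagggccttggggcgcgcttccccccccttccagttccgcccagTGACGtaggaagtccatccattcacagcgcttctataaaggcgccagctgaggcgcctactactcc
Nr4a1 (chr15:101266596-101266845, plus strand): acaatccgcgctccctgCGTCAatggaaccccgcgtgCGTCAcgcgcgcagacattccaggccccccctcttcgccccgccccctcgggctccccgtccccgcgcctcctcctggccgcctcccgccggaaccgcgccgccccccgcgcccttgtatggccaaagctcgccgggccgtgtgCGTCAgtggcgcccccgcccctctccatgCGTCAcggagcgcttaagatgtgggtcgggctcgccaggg

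Motifs were then counted over whole windows, a gene counting where any of its listed promoters held the motif. TGACG on either strand was present in 19 of the 31 immediate early genes (61.3%), against 32.7% of 12401 genes of the table and 38.3% of those at or above the median level. The other genes called higher in cluster 9 also had a high share, 54.1% of 133, whereas genes called lower with a count had 33.0% of 212. The full palindrome, each copy of which also holds the TGACG match on both strands, was in 5 of 31 (16.1%), 8.27% of the other higher genes, 3.30% of the lower genes and 3.19% of all. Those 5 were Btg2, Dusp1, Maff, Plk2 and Ppp1r15a, and Maff held it in 1 of its 3 listed promoters. The letters TATAAA on the coding strand were in 8 of 31 (25.8%), against 8.27% of the other higher genes and 5.69% of all. The CArG box was in 2 of 31 (6.45%) and 1.60% of all, a difference that rests on those 2 genes, Zfp36 and Dusp5. A difference of that kind was not seen for the AP-1 site TGANTCA, with 6.45% of the 31 and 6.74% of all. The NF-kB motif (either strand) was in 19.4% and 12.2%, and the EGR motif GCGTGGGCG (either strand) in 3.23% and 1.35%. A match is a run of letters in this window and not a bound site, and genes are not independent replicates.

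**Figure D3:**
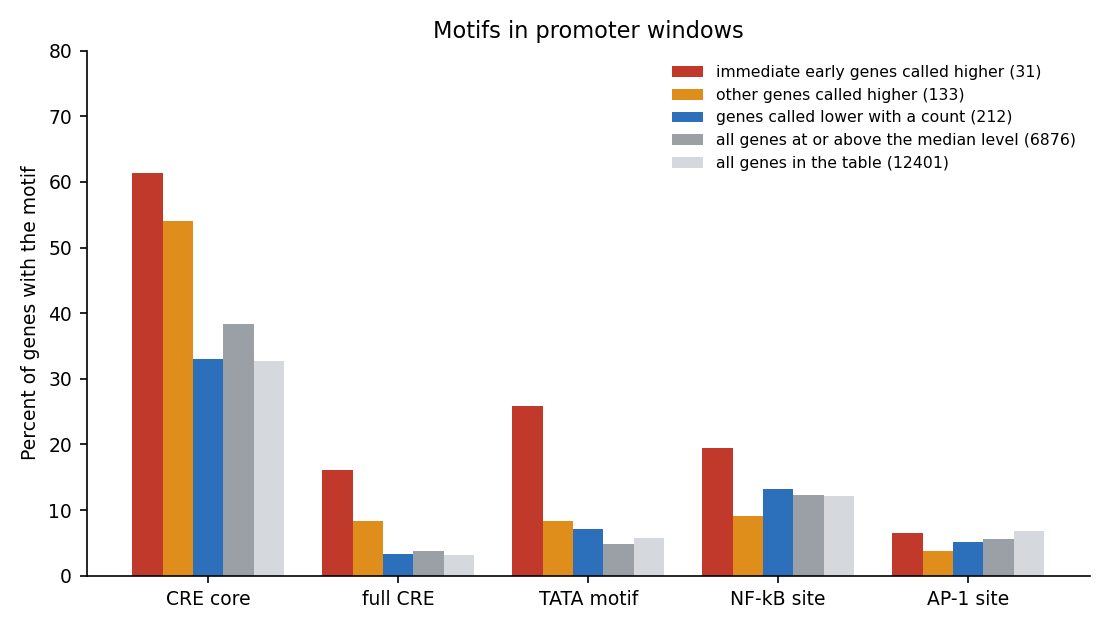
Percent of genes (vertical axis) with each motif in a promoter window of 250 bases before to 50 after the start, by group of genes, with the number of genes that have a promoter entry in the legend. TGACG matches (CRE core in the plot) are in 61.3% of the called immediate early genes, 54.1% of the other genes called higher and 32.7% of all genes, while AP-1 sites are in 6.45%, 3.76% and 6.74%.

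Gene structure, taken from the GENCODE M21 annotation of GRCm38, set the same genes apart in size. The 38 immediate early genes had a median span of 5606 bases and 4 exons, against 23282 bases and 9 exons over 14231 coding genes of the table. The other higher genes lay between, with a median of 13819 bases and 6 exons over 159 genes, and lower genes with a count had 20837 bases and 8 exons over 237. Genes under 10 kb made up 63.2% of the immediate early genes, 39.0% of the other higher genes, 27.0% of the lower genes and 25.6% of all. Coding genes at or above the median level had a median span of 23860 bases. Spans here run over all annotated transcripts of a gene, while exons were counted in 1 coding transcript per gene. A span can therefore be much longer than that transcript needs. The longest annotated spans of the 38 were those of Sgk1 at 117720 bases and Dusp1 at 56539. Dusp1 had 4 exons and a coding sequence of 1104 bases in the transcript counted. The shortest span was that of Ier3 at 1240. Junb, Jun, Jund, Ier2, Ier5 and Rhob had 1 exon.

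**Figure D4:**
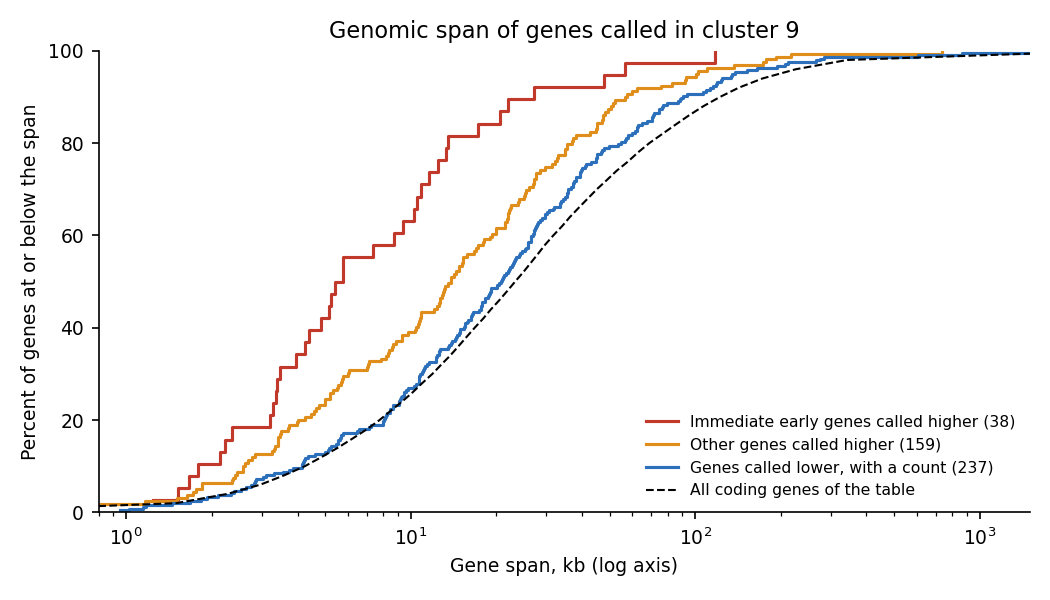
Cumulative percent of genes (vertical axis) by genomic span in kb (horizontal log axis) for genes called in cluster 9, with all coding genes of the table as the dashed line. The immediate early genes reach their midpoint at 5606 bases, the other higher genes at 13819 and all genes at 23282.

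AU-rich elements in the 3' untranslated region mark mRNAs for rapid decay, and their core was counted as TATTTAT on the sense strand. It was present in 23 of the 38 immediate early genes (60.5%), 32.9% of the other higher genes, 19.3% of the lower genes with a count and 26.8% of all. Fos, Jun, Zfp36, Btg2, Dusp1, Ier3 and Mcl1 held it, while Junb, Egr1, Nr4a1 and Ier2 did not. Per kb of untranslated region, the shorter ATTTA, which every TATTTAT contains, occurred 2.62 times in the immediate early genes, 2.13 times in the other higher genes, 1.64 times in the lower genes and 1.82 times in all. The untranslated regions of the immediate early genes were also longer, with a median of 1201 bases against 927 over all. Neither the promoter nor the transcript features were tested, and they describe groups that were chosen by level of expression.

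Beyond the immediate early lists, 167 genes were called higher. Of all 205, 203 had their highest value in cluster 9 among clusters of 50 or more cells, and the exceptions were mt-Atp8 and Hist1h2ap. Among the leading genes outside the lists were Clk1 at 1.44, a kinase of splicing factors, the nuclear receptor coactivator Pnrc1 at 0.82, Srsf5 at 0.76, Tsc22d2 at 1.87, Tra2b at 0.96 and Rlim at 1.25 in the authors' deposited table. Srsf5 and Tra2b encode splicing regulators and Rlim a ubiquitin ligase. Splicing and paraspeckle proteins had 4 of 25 called higher, Clk1, Tra2b, Srsf5 and Pspc1 at 0.69, with none lower. The share of all genes called higher was 1.2%. Neat1, the long RNA that paraspeckles form on, was at 0.81, the 1 call among 11 nuclear long non-coding RNAs in that table.

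The Krüppel-like factors, zinc finger proteins of which several restrain proliferation, had 4 of 15 called, where 1.2% of all genes were called higher. Besides Klf2 they were Klf4 at 2.62, Klf6 at 1.76 and Klf9 at 0.86 in the authors' deposited table. In cluster 2 Klf6 and Klf9 stood at 0.62 and 0.53 by its own deposited table. Of 12 measured HES, HEY and ID genes with Notch partners, 5 were called higher. Beside Hes1 these were Id1 at 2.02, an inhibitor of basic helix-loop-helix factors induced by BMP, Nrarp at 2.00, a Notch target that limits Notch signalling, Id2 at 1.12 and the receptor gene Notch2 at 0.57 in the authors' deposited table. Id1 was at 1.26 in cluster 2. Of cyclin-dependent kinase inhibitors and p53 targets, 3 of 28 were called, Cdkn1a and the immediate early genes Btg2 and Plk2. Cdkn1c, the gene of the quiescence inhibitor p57, was at 0.32 and Cdkn1b at -0.15, and the p53 targets Mdm2 and Ccng1 were at -0.09 and 0.05, none of them called.

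NF-kB genes had 3 of 20 called, the atypical inhibitor genes Nfkbid at 2.74 and Nfkbiz at 2.72 and the adhesion molecule Icam1 at 1.40 in the authors' deposited table. The classical feedback genes Nfkbia at 0.45 and Tnfaip3 at 0.48 were not called. Over all genes 1.2% were called higher. Of 16 cytokine and chemokine genes 3 had no count and none of the others was called, and the 2 largest fold changes were Il10 at 4.02 and Cxcl2 at 3.46, at low levels of -10.21 and -6.24. Socs3, a feedback inhibitor of STAT3 signals, was called higher at 1.58 and Socs2, a STAT5 target, was called lower at -1.30 in the same table. Socs2 had its highest value of clusters 0 to 8 in cluster 2, at 1.53.

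Stress genes were called in part, beside 1.2% of all genes called higher. Of 20 heat shock genes 2 were called, the HSP40 genes Dnajb1 at 1.77 and Dnajb9 at 1.28, while Hspa1a at 0.41 and Hspa1b at 0.75 were not called in the authors' deposited table. Of 24 genes of the ATF4 and unfolded protein response 3 were called, Cebpb at 1.40, Atf4 at 1.29 and Dnajb9, with the ATF4 targets Asns at -0.07 and Trib3 at -0.09 not called. Cluster 2, where 3.02% of all genes were called higher, had 2 of these 20 and 2 of these 24 called higher. Cluster 10, where 1.79% of all genes were, had 3 and 4, and cluster 4 had 0 in both lists. No member of 15 antioxidant genes was called, and of 13 hypoxia targets 1 had no count and none of the others was called. Their largest fold changes were Slc7a11 at 1.57 and Srxn1 at 0.79 among the first and Egln3 at 0.51 and Vegfa at -0.50 among the second. Of 25 glucocorticoid and fasting genes, which were read because of the feeding design, Sgk1, Irs2 at 1.15 and Klf9 were called higher and Fkbp5 lower at -0.74 in the authors' deposited table. Pdk4 at 0.22 and Foxo3 at -0.05, both known fasting responders in other tissues, were not called.

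**Figure D5:**
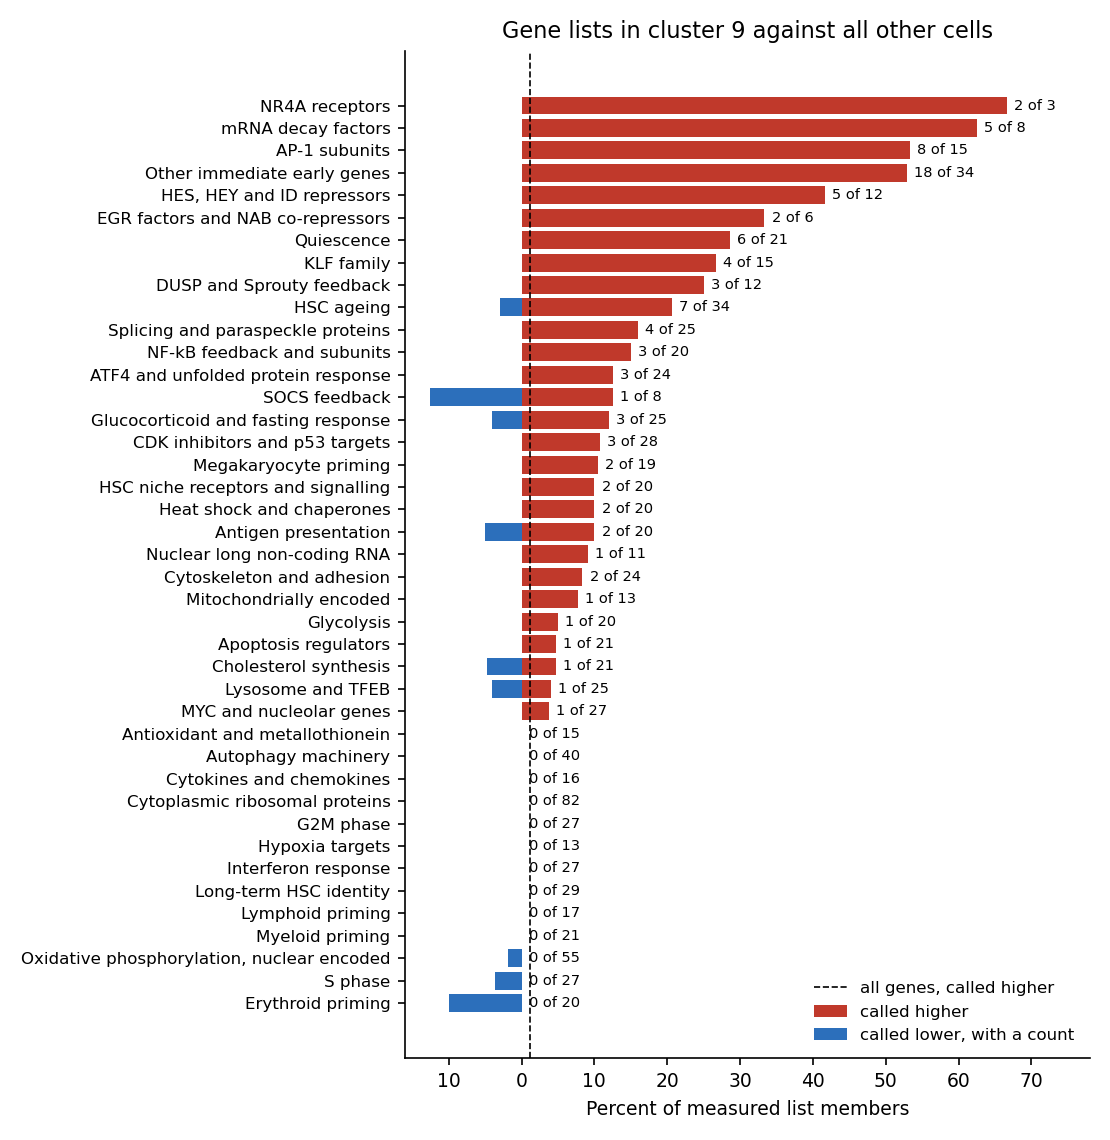
Percent of measured members of each gene list called higher (red, to the right) or lower with a count (blue, to the left) in cluster 9 against all other cells, with the number called higher printed beside each bar. The dashed line marks the 1.2% of all genes called higher; lists share members, and the 6 immediate early lists, which named the cluster, reach 25% to 66.7%.

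None of 29 long-term HSC identity genes was called in either direction, with a median fold change of 0.13, and the largest were Ctnnal1 at 0.59 and Prdm16 at 0.57 in the authors' deposited table. Of 21 quiescence genes 6 (28.6%, against 1.2% of all genes) were called higher, but 5 of these, Egr1, Nr4a1, Junb, Btg1 and Btg2, are also immediate early genes and the other was Klf6. Of 34 HSC ageing genes 31 were above 0, with a median of 0.39, and 7 (20.6%) were called higher. In clusters 3 and 4 likewise 31 were above 0, with medians of 0.33 in cluster 3 and 0.14 in cluster 4. Of the 7 called in cluster 9, Jun and Fosb are immediate early genes. The other 5 were Gpr183 at 1.27, Itgb3 at 0.80, Plscr2 at 0.77, Clec1a at 0.64 and the adhesion receptor Selp at 0.55, and Arhgap30 was called lower at -0.96 in that table. Gpr183 was almost as high in cluster 3, at 1.14. Overlap of cluster 9 with old mice cannot be read from this, since the age of each cell was not analysed here.

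Lineage genes were detected in part, beside 19.7% of all genes without a count, a share not matched for level. Of 20 erythroid priming genes 7 had no count in cluster 9, and Epor at -1.41 and Cnrip1 at -0.62 were called lower in the authors' deposited table. Of 21 myeloid genes 8 and of 17 lymphoid genes 9 had no count, and none with a count was called. Megakaryocyte priming had 1 of 19 without a count and 2 called higher, Itgb3 and Selp. In the cell cycle lists 1 of 27 S phase genes, Gins2 at -1.24, was called lower and none of 27 G2M genes with a count was called in the same table.

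Metabolic and housekeeping lists stayed close to 0. Over 55 nuclear genes of oxidative phosphorylation the median was -0.10, with 13 above 0 and 1 call, Cox5a at -0.56 in the authors' deposited table. Clusters 4 and 2 were similar, with medians of -0.09 and -0.07 and with 2 and 10 of these genes above 0. Over 82 cytoplasmic ribosomal protein genes it was -0.07 with no call. Of the 13 measured mitochondrially encoded genes mt-Atp8 was called higher at 0.68, with 0.85 in cluster 7. Of 40 genes of the autophagy machinery, read because of the LC3 reporter, none was called, with a median of 0.14. Map1lc3b was at 0.11 and Map1lc3a at 0.49, and the largest changes were Ambra1 at -0.81 and Atg16l1 at -0.62 in that table. Of 25 lysosome genes Ctsc at 0.62 was called higher and Npc1 at -0.98 lower. Among 20 glycolysis genes Hk2, a hexokinase, was called at 1.31, and among 21 cholesterol genes Mvk at -0.93 was called lower in the authors' deposited table.

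The remaining groups had few or no calls. No interferon response gene with a count was called among 27, with Oas2 at -1.05 and Ifi27l2a at 0.65 as the largest. Of 20 antigen presentation genes the class I genes H2-Q4 at 0.57 and H2-Q6 at 0.50 were called higher and the class II gene H2-Eb1 lower at -0.74 in the authors' deposited table. The H2-Q genes are close copies of each other, so reads may be split among them. Of 27 MYC and nucleolar genes Ppan at 0.80 was called. Of 24 cytoskeleton and adhesion genes S1pr1 at 0.94 and Tuba1c at 0.80 were called, and of 20 niche receptor genes S1pr1 and Skil at 2.35, an antagonist of SMAD signals, in the same table. Of 21 apoptosis regulators 1 had no count, and of those with a count Mcl1 was called higher and none was called lower.

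The genes called lower with a count were spread thinly over the lists, with at most 2 in any of them. In the authors' order the first 10 were Snhg20 at -1.64, Clec4e at -2.37, Spink10 at -2.92, H2-Ob at -2.85, Slc35e3 at -2.85, Pou6f1 at -2.85, Dolk at -2.03, Rap1gap at -1.92, Cox5a at -0.56 and Rnaseh2c at -0.69 in the authors' deposited table. Only Snhg20 at a level of -0.38, Cox5a at 1.03 and Rnaseh2c at 0.12 of these had a log2 level above -3. Snhg20 is the host transcript of a small nucleolar RNA, and its highest value among clusters 0 to 8 was 0.52 in cluster 8. H2-Ob, a gene of the MHC class II pathway, and Clec4e, a lectin receptor, were highest in cluster 0 at 1.26 and 0.70.

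Pathway scores were made from the same cells and are not a separate line of evidence. Of 2922 pathways 774 (26.5%) were called higher in cluster 9 and 78 (2.67%) lower at a deposited adjusted p under 0.05. With more than 1 in 4 called higher, the rank says more than the count. The first 3 in the authors' order were the PID FRA pathway at a log2 fold change of 0.81, PID NFAT transcription factor pathway at 0.88 and PID CD8 T cell receptor downstream pathway at 0.59 in the authors' deposited table. Also among the leading 12 were PID AP1 at 0.69, WikiPathways photodynamic therapy NRF2 signalling at 0.80, spinal cord injury at 0.47 and BioCarta BTG2 at 1.02. The last of these 12 were Reactome activation of the AP-1 family at 1.06, photodynamic therapy AP1 signalling at 0.64 and the serotonin and anxiety sets at 1.18 and 1.05. The members of these sets were not analysed here.

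By the authors' deposited tables the 12 leading pathways of cluster 9 were between 0.05 and 0.28 in cluster 4 and between -0.31 and -0.07 in cluster 3. Cluster 10 had them between 0.28 and 0.57. The lowest of cluster 9 among pathways with a bounded fold were pathways of mitochondria, and small in size. Reactome mitochondrial translation was at -0.14, complex I biogenesis at -0.10, respiratory electron transport at -0.06 and the same with ATP synthesis at -0.06. WikiPathways complex I assembly was at -0.08, oxidative phosphorylation at -0.08 and its KEGG version at -0.05. Reactome translation stood among them at -0.04. These 8 pathways were also below 0 in cluster 4, at -0.09 to -0.03, and in cluster 2, at -0.06 to -0.01. They were above 0 in cluster 0, at 0.04 to 0.11, and in cluster 3, at 0.02 to 0.05. Low values of this size were thus not particular to cluster 9. Of the 78 lower pathways 21 had an unbounded fold, as a gene with no count has. Those were left out of this ranking, and no fold is given for them.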

How the data were processed

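Single-cell RNA libraries of sorted HSCs were compared by the authors as 11 clusters, each against all other cells, in 22 deposited tables of genes and pathways. Per the submitters' processing notes Scanpy and the mm10 build were used. Not given in the sources used here: aligner, cell filters, doublet handling, clustering settings and test. In the deposited gene tables the authors give the log2 mean level in counts per 10000, the log2 fold change, a p-value over cells and its adjusted p-value, which was checked to be the Benjamini-Hochberg value. The score in the authors' deposited pathway tables is a signed statistic over cells, given with a log2 fold change and p-values, and 12 pathways carry no fold. Folds under -10 stand for genes with no count (deposited values leave a gap between -14.0 and -2.92). Such genes showed that fold-scale levels were a median 0.72 of arithmetic means.

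Cell numbers were inferred from deposited p-values of genes seen in 1 cell, whose Welch statistic is 1 in size; 4 of 11 clusters were read on both sides. Totals of the 19 cells holding such a gene had a median of 11707 counts (4239 to 22599). Cluster 9 holds 3 counts of a gene at a log2 level of -5.71, and the highest level without a count was -4.39. Python 3.11.15, pandas 2.3.3, numpy 2.4.6 and scipy 1.17.1 were used, and the reading of sizes and calls was tested on simulated data. No test between groups was made, since each group is 1 mouse.

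Members and the 40 gene lists and 16 other marker lists were chosen with earlier results of these data known. Named genes were the 25 highest and 10 lowest called ones in the authors' order (Gm and Rik names skipped) and the 6 markers. Up to 8 called members per list were also named, and otherwise the 2 largest. The 12 highest pathways and the 8 lowest with a bounded fold were named. Other genes are list members or were named after their values were seen, and a few items are not reported here. Alternatives were a fold of 1, an adjusted p of 0.01, no p filter, genes at or above the median level, centred folds, other summaries and another motif. Promoters and gene models came from RefSeq (GRCm38.p6) and GENCODE M21; genes without an entry, Hes1 among them, were left out of those counts.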

Additional observations from a re-analysis of the deposited data

How the results depend on the processing

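The count of 38 immediate early genes called higher lay between 32 and 57 under a fold of 1, an adjusted p of 0.01, no p filter, genes at or above the median level and centred folds, and none of the long-term HSC identity genes was called lower under any of them. The 205 higher genes became 99 at a fold of 1 and 2477 without the p filter. The 3390 lower genes became 161 among genes at or above the median level. The 286 lower genes with a count became 162 at a fold of 1, 141 at an adjusted p of 0.01, 1296 without the p filter and 161 at or above the median level. The immediate early median of 1.42 was 1.50 as a mean over members with a count, 1.31 at or above the median level and 1.38 with centred folds. It was 1.31 without the markers, of which Fos, Nr4a1 and Atf3 belong to the class. Highest in cluster 9 were 62 members, 48 with cluster 10 included and 41 at or above the median level, where fewer genes enter. With a fold of 0.1 as well, the 78 lower pathways became 44. The share of promoters was 16.1% for the full CRE and 61.3% for its TGACG part. The number of cells was read from the rest side alone and was 112 also as the total less the other 10 clusters, a check added after the data were seen. No paired analysis was possible because each group is 1 library and no value per library was analysed, so no library could be left out either. Depth limits genes with a log2 level under -5.71, where cluster 9 would hold fewer than 3 counts.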

Other observations

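Genes for mitochondrial ribosomal proteins, read after the lowest pathway with a bounded fold was seen, lay slightly below the other genes. Of 78 measured, 17 were above 0 and the median log2 fold change was -0.19 in the authors' deposited table, against 0.04 for all genes with a count, of which 54.7% were above 0. Of genes with a count at or above the median level, 49.5% were above 0. Called lower were 3 of the 78, Mrps25 at -0.53, Mrps34 at -0.66 and Mrpl18 at -0.66, against 2.09% of all genes with a count. None was called higher.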
